A study of Mus musculus with 8 samples.

Results

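Genes for the enzymes that make and clear prostaglandins and leukotrienes were examined in epididymal white adipose tissue, a visceral fat depot of mice, after high-fat feeding. Of 10 genes listed by symbol, 9 had a row among the 31854 rows of the count table, and Ltc4s, the leukotriene C4 synthase gene, is not analysed here. The S273A group carried PPAR-gamma with alanine in place of serine 273, and the WT group carried the wild-type receptor, with 4 libraries each (S273A replicates 2, 3, 4 and 6, and WT replicates 1, 2, 3 and 5). Both groups were on the same diet, and the labels give no strain, age or zygosity. RNA came from whole tissue, so fewer cells of a type and less RNA per cell cannot be told apart. Nothing in the labels ties the libraries to separate animals, so the p-values rest on the spread between libraries, which may be technical.

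Prostaglandins and leukotrienes are short-lived lipid signals made from arachidonic acid, which phospholipase A2 frees from membranes. The cyclooxygenases turn it into an unstable intermediate from which terminal synthases make prostaglandin D2, E2 and others, and 5-lipoxygenase with its activating protein starts the leukotriene branch. In fat, prostaglandin E2 is known to restrain lipolysis through its receptor on adipocytes, and dehydration products of prostaglandin D2 are among the candidate ligands of PPAR-gamma, the receptor altered here.

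No difference between S273A and WT larger than the spread between libraries was found in any of the 9 enzyme genes. In edgeR's quasi-likelihood test 0 of 9 passed an adjusted p under 0.05, as did 0 of all 15667 tested rows (0%), and 0 of 9 had an unadjusted p under 0.05, against 1.46% of all rows. DESeq2 and limma-voom also called 0 of the 9 and gave none of them an unadjusted p under 0.05. The genotypes overlapped in each of the 9 genes, whereas 1.19% of all tested rows showed no overlap. Of the 9 estimates, 7 were negative and 2 positive. Their median log2 fold change (S273A over WT) was -0.08, beside 0.001 over all tested rows. The 95% confidence interval lay within 1.5-fold in either direction for 7 of the 9. The wider ones belonged to Ptgs2 and Ptgds, which had the fewest reads.

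Total counts ran from 16161127 to 18194889 in S273A and from 14880239 to 17266209 in WT. Levels are given as CPM after dividing reads by TMM-corrected library sizes, here called normalised CPM. Adipocyte markers summed to 6723 to 8831 CPM in S273A and 5734 to 8975 CPM in WT, so the defining genes of fat cells were abundant in every library. Epididymis markers were close to 0: 6 of 11 had no read in any library, and the highest count was 20, of the epididymal gene Adam7 in S273A replicate 2, with 0 in the other 7 libraries.

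**Figure D1:**
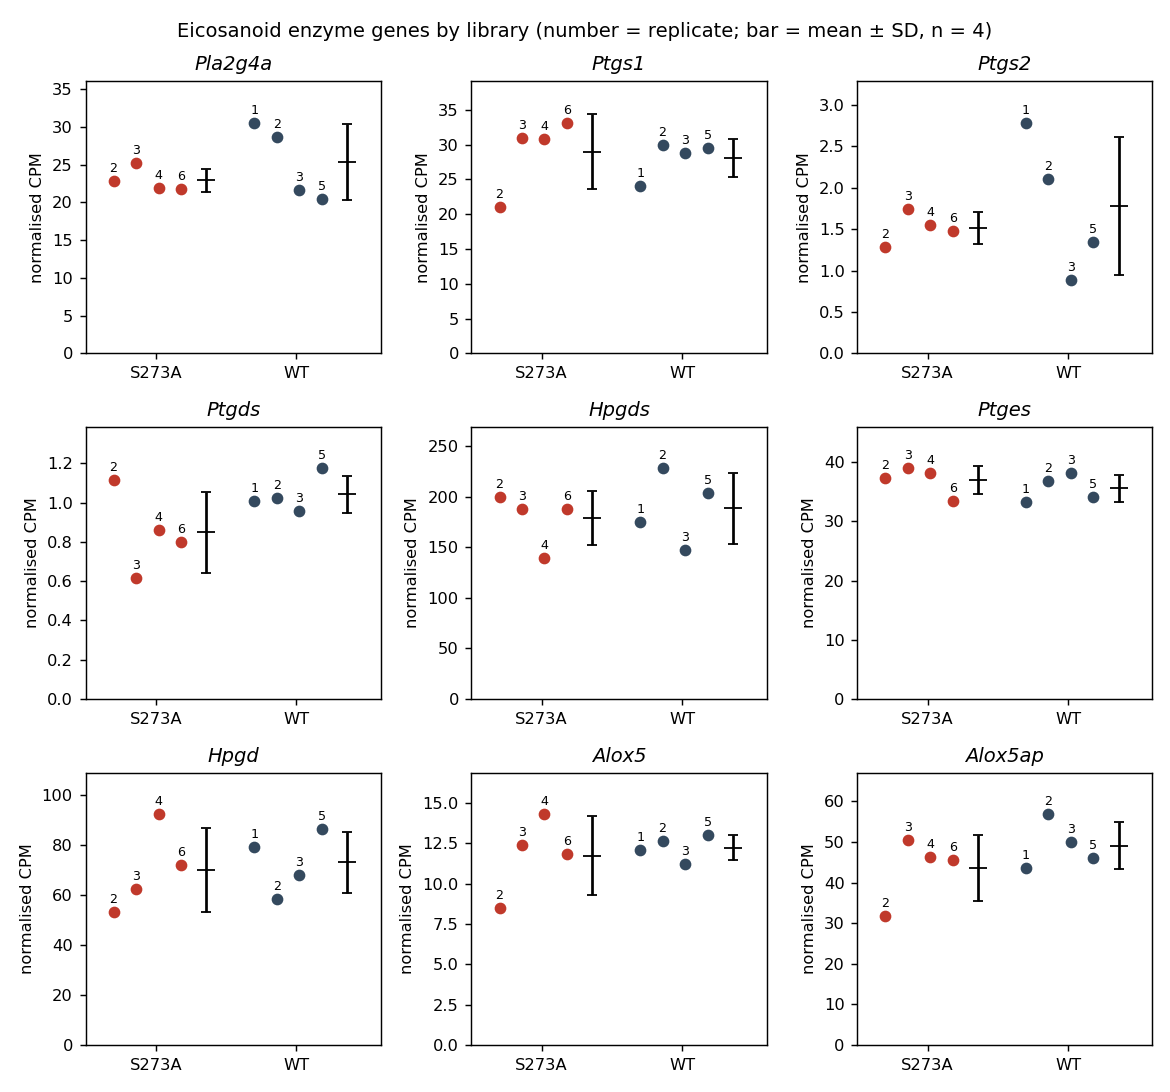
Normalised CPM (vertical axis, from 0) of each enzyme gene in the 4 S273A and 4 WT libraries, with replicate numbers beside the points and bars for mean ± SD. The genotypes overlap in every panel, and S273A replicate 2 is the lowest point for Ptgs1, Alox5 and Alox5ap.

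Substrate release was represented by Pla2g4a, the cytosolic phospholipase A2 that frees arachidonic acid. Pla2g4a (row uc007cxt.2) had 22.9, 25.1, 21.8 and 21.8 CPM in S273A replicates 2, 3, 4 and 6, against 30.6, 28.7, 21.7 and 20.5 CPM in WT replicates 1, 2, 3 and 5. WT replicates 1 and 2 were above every S273A library, and WT replicates 3 and 5 were below every S273A library. The means were 22.9 ± 1.57 CPM in S273A and 25.4 ± 5.01 CPM in WT (SD, n = 4 each). The estimate of the log2 fold change was -0.15 (SE 0.13, 95% interval -0.44 to 0.14, edgeR adjusted p 1).

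The cyclooxygenases, which commit arachidonic acid to prostaglandins, come in a constitutive and an inducible form. The constitutive Ptgs1 (row uc008jll.2) had 21.02, 31.0, 30.8 and 33.2 CPM in S273A, against 24.0, 29.9, 28.7 and 29.5 CPM in WT, in the same order of replicates. One library of each genotype was low, S273A replicate 2 and WT replicate 1, and the other 6 lay close together. The means were 29.0 ± 5.42 CPM in S273A and 28.1 ± 2.73 CPM in WT (log2 fold change 0.05, SE 0.14, 95% interval -0.26 to 0.35, edgeR adjusted p 1). The 11 exon blocks of Ptgs1 share 148 bases with Gm43621 on the opposite strand, from which reads of these strandless libraries cannot be told apart.

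Ptgs2 (row uc007cxv.2), the inducible cyclooxygenase, was at 23, 31, 27 and 24 reads in S273A and 47, 37, 13 and 23 reads in WT. That is 1.28, 1.74, 1.55 and 1.48 CPM in S273A, against 2.79, 2.10, 0.89 and 1.35 CPM in WT. The 4 S273A libraries lay inside the WT range, which ran down to replicate 3 and up to replicate 1. Its coefficient of variation was 12.6% in S273A and 46.9% in WT, while the median tested row had 9.88% in S273A and 9.92% in WT. S273A over WT gave a log2 fold change of -0.25 (SE 0.32, 95% interval -0.95 to 0.46). The interval bounds the fold between 0.52 and 1.37 times the WT level, and changes inside these bounds remain compatible with the data. Without WT replicate 1 the estimate was 0.05.

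Pla2g4a and Ptgs2 lie near each other on chromosome 1, transcribed away from each other, with their 5' ends 139 kb apart. WT replicates 1 and 2 held the highest values of both. Over the 8 libraries their log2 CPM had a Pearson r of 0.851 (exact permutation p 0.00451, adjusted p 0.162 over 36 pairs of enzyme genes) and a Spearman rho of 0.81 (exact permutation p 0.0218). Without the libraries farthest from the median of Pla2g4a, WT replicates 1 and 2, r was 0.453, so the relation rests on those libraries. Of the 36 pairs 0 passed the adjustment and 4 had an unadjusted exact permutation p under 0.05.
The 250 bases before the annotated starts of the neighbours Pla2g4a and Ptgs2, also the pair with the smallest exact permutation p, are shown. The letters are from RefSeq's sequence of GRCm38.p6, with matches to the searched motifs in capitals. The windows are chr1:149961291-149961540, minus strand, for Pla2g4a and chr1:150099781-150100030, plus strand, for Ptgs2.
Pla2g4a: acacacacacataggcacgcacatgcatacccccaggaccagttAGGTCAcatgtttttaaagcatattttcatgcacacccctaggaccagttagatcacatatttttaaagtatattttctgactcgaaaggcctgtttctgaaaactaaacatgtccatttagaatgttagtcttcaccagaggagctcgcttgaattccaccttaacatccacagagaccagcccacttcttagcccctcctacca
Ptgs2: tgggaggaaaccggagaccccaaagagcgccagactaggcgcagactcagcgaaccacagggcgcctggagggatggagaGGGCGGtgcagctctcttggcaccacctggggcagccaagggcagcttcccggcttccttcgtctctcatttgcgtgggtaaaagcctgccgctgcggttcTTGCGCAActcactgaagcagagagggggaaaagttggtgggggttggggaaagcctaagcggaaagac
The motifs searched on both strands were AGGTCA (the half-site of nuclear receptors such as PPAR-gamma), AGGTCANAGGTCA (its doubled form), TATAAA (the TATA box), GGGCGG (the GC box) and TTGCGCAA (bound by C/EBP factors). Over 32851 windows of this length AGGTCA occurs in 14%, the doubled form in 0.0335%, the TATA box in 12.4%, GGGCGG in 32.7% and TTGCGCAA in 0.164%. The window shown for Pla2g4a holds 1 AGGTCA, starting 206 bases before that start. RefSeq's table has another start of Pla2g4a, whose window (chr1:149922440-149922689, minus strand) holds 1 TATA box match, starting 200 bases before it, and no AGGTCA. Ptgs2 holds 1 GGGCGG and 1 TTGCGCAA, starting 170 and 69 bases before its start. The doubled form was in none of the 10 windows of the 9 genes matched in RefSeq's table, Ltc4s among them. Alox5ap was not matched.

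Prostaglandin D2 is made by either of the synthases that Hpgds and Ptgds encode, of which Hpgds had the higher level here. Hpgds (row uc009cee.2), the glutathione-dependent form known from mast cells, macrophages and T helper cells, had 199.8, 187.7, 139.7 and 187.3 CPM in S273A, against 174.6, 227.8, 147.6 and 203.3 CPM in WT. Its highest library was WT replicate 2 and its lowest S273A replicate 4, followed by WT replicate 3. The means were 179 ± 26.6 CPM in S273A and 188 ± 34.8 CPM in WT (log2 fold change -0.08, SE 0.14, 95% interval -0.40 to 0.25, edgeR adjusted p 1). Markers of macrophages summed to 3470 to 4058 CPM in S273A and 3712 to 4412 CPM in WT, with the highest value in WT replicate 2 and the lowest in S273A replicate 4, as for Hpgds. In S273A replicate 2 they summed to only 3511 CPM, though its Hpgds was the highest of the S273A libraries. The part of macrophages in the Hpgds level was not tested.
Ptgds (row uc008isf.1), the lipocalin-type synthase that also carries lipids in secretions and is abundant in the male tract, had 20, 11, 15 and 13 reads in S273A and 17, 18, 14 and 20 reads in WT. That is 1.12, 0.62, 0.86 and 0.80 CPM in S273A, against 1.01, 1.02, 0.96 and 1.17 CPM in WT. In S273A 3 libraries were below every WT library, and replicate 2 was inside the WT range. On the log2 scale S273A differed from WT by -0.29 (SE 0.23, 95% interval -0.81 to 0.23, edgeR adjusted p 1). S273A replicate 2 also held the 20 reads of Adam7, which made 1.115 CPM of its sum of epididymis markers, 1.34 CPM, the highest. The next highest sum, 0.62 CPM, was in S273A replicate 3, where Ptgds was lowest. The part of the epididymis in the Ptgds values was not tested. Without S273A replicate 2 the log2 fold change of Ptgds was -0.46.

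Ptges, the microsomal prostaglandin E2 synthase induced in inflammation, had the smallest standard error of the 9. Ptges (row uc008jcz.1) had 37.4, 39.0, 38.1 and 33.5 CPM in S273A, against 33.2, 36.9, 38.2 and 34.1 CPM in WT, so the ranges of the genotypes nearly coincided. The coefficients of variation were 6.5% in S273A and 6.49% in WT. The estimate of the log2 fold change was 0.06 (SE 0.07, 95% interval -0.10 to 0.21), which bounds the fold between 0.93 and 1.16.

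Hpgd encodes the dehydrogenase that inactivates prostaglandins. Hpgd (row uc009lso.1) had 53.1, 62.5, 92.4 and 72.2 CPM in S273A, against 79.0, 58.4, 68.1 and 86.5 CPM in WT. S273A replicates 2 and 4 were the lowest and the highest of all 8 libraries. The means were 70.1 ± 16.8 CPM in S273A and 73.0 ± 12.3 CPM in WT (log2 fold change -0.06, SE 0.17, 95% interval -0.45 to 0.32, edgeR adjusted p 1).

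The leukotriene branch was represented by Alox5, which encodes 5-lipoxygenase, and Alox5ap, which encodes the membrane protein that hands it arachidonic acid. Alox5 (row uc009dkd.1) had 8.47, 12.4, 14.3 and 11.8 CPM in S273A, against 12.1, 12.6, 11.2 and 13.0 CPM in WT. S273A replicate 2 was the lowest and S273A replicate 4 the highest of the 8, with the 4 WT libraries between. S273A over WT gave a log2 fold change of -0.06 (SE 0.14, 95% interval -0.38 to 0.26, edgeR adjusted p 1), and 0.07 without S273A replicate 2.
Alox5ap (row uc009app.2) had 31.7, 50.4, 46.4 and 45.6 CPM in S273A, against 43.6, 56.9, 50.1 and 46.0 CPM in WT. It was lowest in S273A replicate 2, and the other 3 S273A libraries lay inside the WT range. The means were 43.5 ± 8.15 CPM in S273A and 49.1 ± 5.82 CPM in WT (log2 fold change -0.18, SE 0.14, 95% interval -0.49 to 0.14), the smallest unadjusted p of the 9 at 0.236 in edgeR. Its estimate was -0.05 without S273A replicate 2. In GENCODE, exons of Alox5ap share 189 bases with the antisense gene Gm19719, whose reads cannot be told apart there. The counted row is longer, 5244 bases against 1420 bases of those exons, so this overlap does not bound the uncertainty of its count.

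**Figure D2:**
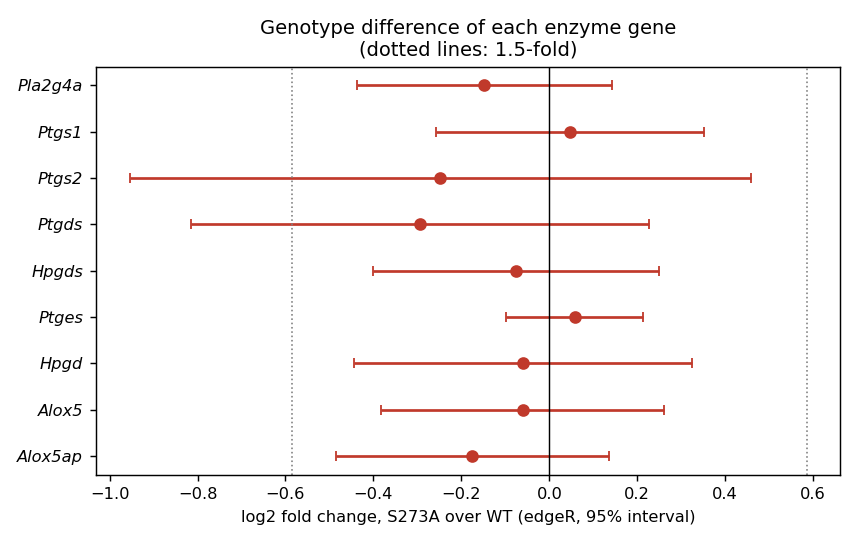
Log2 fold change of each enzyme gene, S273A over WT (horizontal axis), with 95% confidence intervals from edgeR and dotted lines at 1.5-fold. All 9 intervals include 0, and those of Ptgs2 and Ptgds reach past the dotted line on the lower side.

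Compared per length, the 9 genes spanned a 150.5-fold range, with Hpgds and Hpgd at the top. On the scale of normalised CPM per kilobase of the deposited row length, the level of Hpgds was 54.2 ± 8.07 in S273A and 57.1 ± 10.6 in WT, and that of Hpgd was 40.8 ± 9.77 in S273A and 42.5 ± 7.18 in WT (SD, n = 4 each). Their ranges over the 8 libraries overlapped. Next came Ptges (10.2 ± 0.66 in S273A and 9.76 ± 0.63 in WT) and Ptgs1 (10.1 ± 1.89 in S273A and 9.79 ± 0.95 in WT). Alox5ap (8.30 ± 1.55 in S273A and 9.37 ± 1.11 in WT) and Pla2g4a (7.51 ± 0.51 in S273A and 8.31 ± 1.64 in WT) came after them, and each of these 4 overlapped its neighbour in range. Alox5 (3.93 ± 0.81 in S273A and 4.09 ± 0.26 in WT), Ptgds (1.05 ± 0.26 in S273A and 1.29 ± 0.12 in WT) and Ptgs2 (0.34 ± 0.04 in S273A and 0.40 ± 0.19 in WT) followed in separate ranges. The mean level of Ptgs1 over the 8 libraries was 26.9 times that of Ptgs2.
The order depends on which length is used. The deposited length of Alox5ap is 5244 bases, against 1420 bases of exons in GENCODE, and that of Hpgds 3298 against 6425. With GENCODE lengths, an alternative chosen after seeing the data, Hpgd came first at 42.5 CPM per kilobase (mean of 8 libraries), then Alox5ap at 32.6 and Hpgds at 28.6. On those lengths the range of Alox5ap overlapped those of Hpgd and Hpgds, so the order at the top is not separated. The ranges of Ptges and Ptgs1 overlapped, as did those of Ptgds and Ptgs2 and those of Pla2g4a and Alox5.

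**Figure D3:**
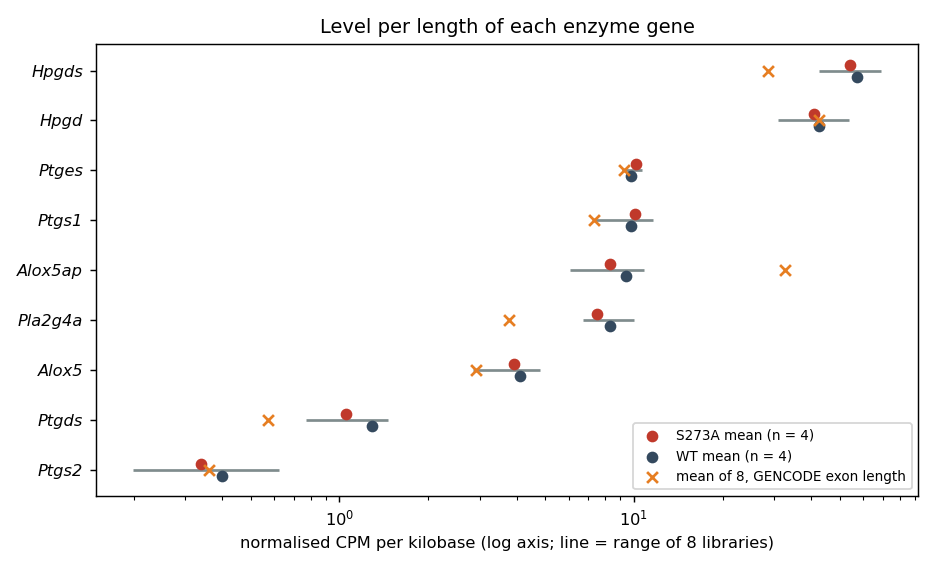
Normalised CPM per kilobase (horizontal log axis) of each enzyme gene, with the S273A and WT means on the deposited length, a line for the range of the 8 libraries, and a cross for the mean of 8 on GENCODE exon length. Hpgds and Hpgd lead on the deposited length, and Alox5ap moves up to 32.6 with the GENCODE length.

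Across libraries, 1 stood low for several of the enzyme genes. S273A replicate 2 was the lowest of the 8 for Ptgs1, Hpgd, Alox5 and Alox5ap, but second highest for Ptgds. In that library mast cell markers summed to 139 CPM, against 206 to 245 CPM in the other S273A libraries, and platelet markers to 17.6 CPM, against 31.3 to 38.4 CPM. In WT the mast cell sum ran from 168 to 317 CPM and the platelet sum, of which Pf4 made 67.1% over the libraries, from 25.9 to 32 CPM. Tpsb2, a mast cell tryptase, was at 26.7 CPM in S273A replicate 2 and at 34.4 CPM or more in every other library, and Pf4, a platelet factor that tissue macrophages can also express, at 11.1 CPM against 17.9 or more. These 2 markers were named after their values were seen. That library was the lowest of the 8 for 6 of the 9 mast cell markers and 4 of the 6 platelet markers, but Kit was at 42.9 CPM in it, the highest of the S273A libraries, as was Gp9 at 0.61 CPM. S273A replicate 2 was also lowest for 4 of the 12 macrophage markers, such as Adgre1 at 436 CPM. Mertk, on the same list, was highest in it, at 286 CPM. The macrophage sum was 3511 CPM there, against 3470 CPM in S273A replicate 4, and the eosinophil sum was the lowest of the 8, at 9.31 CPM. The part of any of these cells in the enzyme levels was not tested.

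Each enzyme gene was set against 11 lists of cell type markers, 99 relations of log2 CPM over the 8 libraries, and 0 passed the adjustment while 8 had an unadjusted exact permutation p under 0.05. By Pearson r over the 8 libraries, Alox5 went most closely with platelet markers, at 0.956 (exact permutation p 0.00208, adjusted p 0.206) and a Spearman rho of 0.762 (exact permutation p 0.0368). Without the 2 libraries farthest from the median of those markers, S273A replicates 2 and 4, r was 0.604. Without S273A replicate 6 it was 0.994 and passed (adjusted p 0.0196, exact permutation). By Spearman's rho the closest list to Alox5 was that of mast cells (rho 0.905, exact permutation p 0.00456), with r 0.806 (exact permutation p 0.0215, adjusted p 0.531) and 0.919 without WT replicate 2 and S273A replicate 2. Without WT replicate 2 alone that r was 0.961 and passed (adjusted p 0.0393, exact permutation). Ptgs1, the cyclooxygenase of platelets, had r 0.869 with platelet markers (exact permutation p 0.0098, adjusted p 0.346; rho 0.762, exact permutation p 0.0368), and 0.67 without S273A replicates 2 and 4.
Alox5ap went most closely with mast cell markers (r 0.778, exact permutation p 0.0328, adjusted p 0.532; rho 0.643, exact permutation p 0.0962), and r was -0.29 without WT replicate 2 and S273A replicate 2, on which the relation rests. Hpgd had r -0.849 with markers of T and NK cells (exact permutation p 0.0105, adjusted p 0.346; rho -0.881, exact permutation p 0.00724), and -0.594 without S273A replicate 4 and WT replicate 5. Cd28 made 42.8% of that marker sum over the libraries, and with the mean log2 CPM of the markers in place of their sum r was -0.697.
Hpgds with macrophage markers passed without S273A replicate 2 (r 0.971, exact permutation adjusted p 0.0196), but not over the 8 libraries (r 0.715, rho 0.762, exact permutation p 0.0472 for r and 0.0368 for rho, adjusted p 0.532), and r was 0.272 without S273A replicate 4 and WT replicate 2, on which the relation rests. Hpgds had r -0.745 with adipocyte markers (exact permutation p 0.0344, adjusted p 0.532; rho -0.595, exact permutation p 0.132), and -0.732 without S273A replicate 3 and WT replicate 2. Pla2g4a had r -0.726 with markers of progenitors and fibroblasts (exact permutation p 0.0475, adjusted p 0.532; rho -0.786, exact permutation p 0.0279), and -0.722 without WT replicate 5 and S273A replicate 3. For Ptgs2, Ptgds and Ptges the closest lists had r of -0.513 (adipocytes, rho -0.667), -0.418 (platelets, rho -0.286) and -0.514 (eosinophils, rho -0.595), with exact permutation p of 0.2, 0.29 and 0.208 and adjusted p 0.743 each. With the mean log2 CPM of the markers in place of their sum, r of Ptges with eosinophil markers was -0.084.

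**Figure D4:**
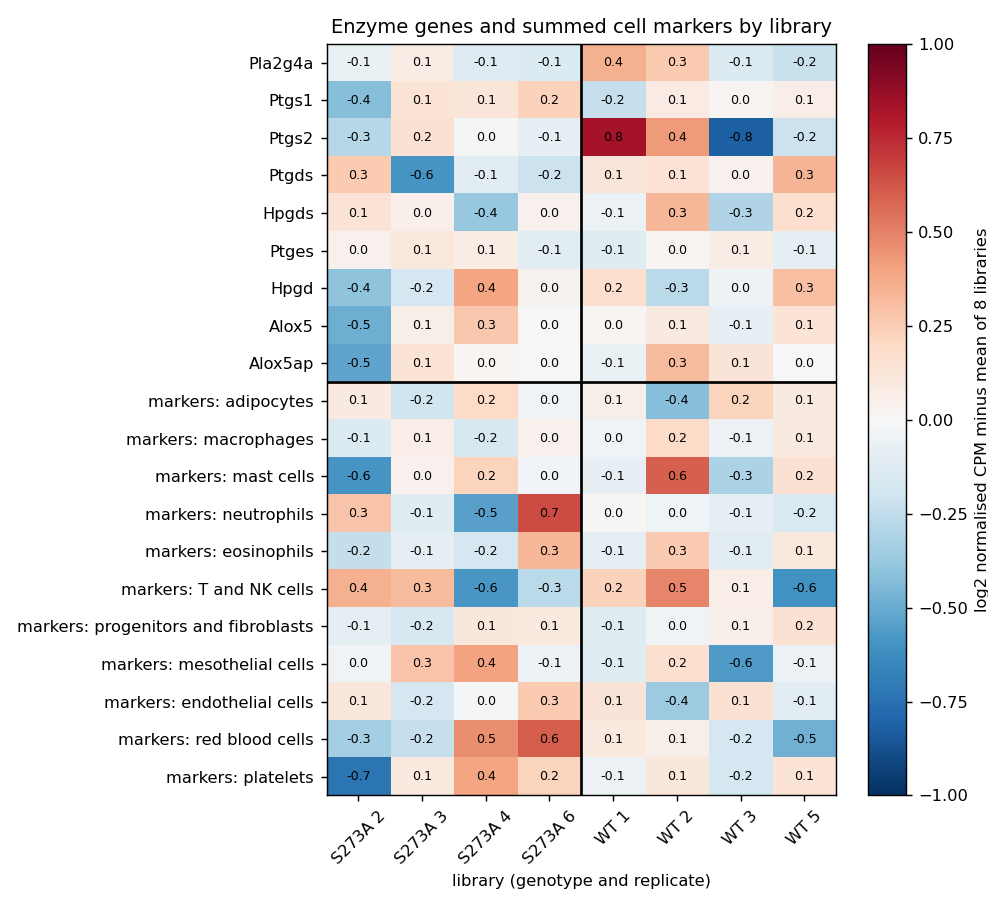
Log2 normalised CPM minus the mean of the 8 libraries (colour and printed value) for the 9 enzyme genes, above the line, and for the summed CPM of 11 marker lists, below it, with S273A libraries on the left and WT libraries on the right. S273A replicate 2 is blue for Ptgs1, Hpgd, Alox5, Alox5ap and, among other lists, for mast cell and platelet markers.

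The rows whose log2 CPM was most like that of each enzyme gene were searched among 10339 named rows at or above a mean of 3 on that scale. The highest of so many r over 8 libraries is high by selection, so no p is given. Hpgd had the closest match, with the calcineurin regulator Rcan1 (r 0.993, rho 1), followed by the nectin gene Pvrl3 (r 0.97) and the mTOR inhibitor gene Deptor (r 0.967). For Alox5ap the closest were the fatty acid oxidation gene Cpt1a (r 0.986, rho 0.976), the myeloid lectin gene Clec12a (r 0.973) and the diacylglycerol lipase gene Daglb (r 0.973).
Alox5 was followed by Atp9b (r 0.976), Fat3 (r 0.96) and the aldo-keto reductase gene Akr1b8 (r 0.959), and Ptgs1 by Dpy19l3 (r 0.968), the B cell chemokine gene Cxcl13 (r 0.955) and Brd2 (r 0.943). For Hpgds they were Kctd12b (r 0.975), Myo7a (r 0.972) and Vps39 (r 0.966), and for Pla2g4a Aqr (r 0.977), the transcriptional inhibitor gene Id2 (r 0.959) and Ercc6l2 (r 0.944). Ptgs2 matched D930016D06Rik (r 0.968), Frg1 (r 0.963) and Lsg1 (r 0.962), Ptgds matched Zfp24 (r 0.968), Sumf1 (r 0.963) and Cdc123 (r 0.96), and Ptges matched Crtc1 (r 0.959) and Gcc1 (r 0.919). Spearman rho of these rows lay between 0.81 and 1.

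The rest of the pathway was read from 7 lists of 58 genes, of which 55 had a row and 41 were tested. None of the 41 passed the test in either direction, 0 had an unadjusted p under 0.05 in edgeR, in DESeq2 or in limma-voom, and none had genotypes without overlap. Of their estimates, 17 were positive and 24 negative, and the median log2 fold change was -0.02, beside 0.001 over all rows. The 14 genes that were not tested had at most 15 reads in a library. Among them Alox12e had 5 to 8 reads in S273A and 1 to 4 in WT, without overlap in CPM but with too few reads for the test. Of all tested rows, 1.19% showed no overlap.

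Of the other phospholipases A2, 9 were tested and 0 passed. The smallest unadjusted edgeR p-values were 0.158 for Pla2g5, 0.52 for Pla2g2e and 0.546 for Pla2g2d. Pla2g7 followed at 0.554, with a log2 fold change of -0.09, and Pla2g12a was at 0.938. Pla2g5 was at 1.91 ± 1.05 CPM in S273A and 1.22 ± 0.53 CPM in WT (log2 fold change 0.67, SE 0.44), Pla2g2d at 11.4 ± 6.62 CPM in S273A and 9.61 ± 3.84 CPM in WT (0.25, SE 0.40) and Pla2g2e at 4.95 ± 0.90 CPM in S273A and 4.50 ± 1.14 CPM in WT (0.14, SE 0.21). Pla2g5 was at 3.46 CPM in S273A replicate 2 and at 1.11 to 1.55 CPM in the other S273A libraries. Pla2g16, the main phospholipase of adipocytes, was named after its values were seen: 238 ± 35.2 CPM in S273A and 244 ± 47.8 CPM in WT (log2 fold change -0.04, SE 0.15).

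Of the other prostanoid synthases, 8 were tested and 0 passed. Ptgis, which makes prostacyclin, was at 39.0 ± 6.37 CPM in S273A and 34.2 ± 5.17 CPM in WT (log2 fold change 0.19, SE 0.13). Tbxas1, which makes thromboxane, was at 112 ± 18.1 CPM in S273A and 117 ± 14.2 CPM in WT (-0.07, SE 0.13), and lowest in S273A replicate 2, at 86.6 CPM. Akr1b3, an aldose reductase that can form prostaglandin F2 alpha, was at 25.6 ± 0.92 CPM in S273A and 27.1 ± 0.72 CPM in WT (-0.08, SE 0.06).

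Of the genes for prostaglandin transport and reduction, 5 were tested, 0 passed and all 5 had estimates between -0.10 and -0.002. The reductase genes Ptgr1 and Ptgr2 were at 11.0 ± 0.79 and 103 ± 5.83 CPM in S273A, and at 11.8 ± 0.85 and 107 ± 8.58 CPM in WT. The prostaglandin transporter gene Slco2a1 was at 34.1 ± 7.52 CPM in S273A and 34.4 ± 7.86 CPM in WT (log2 fold change -0.02, SE 0.19).

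Of the prostanoid receptors, 6 were tested and 0 passed. Ptger2 and Ptger4, prostaglandin E2 receptors that raise cyclic AMP, were at 20.7 ± 3.04 and 40.6 ± 4.11 CPM in S273A, and at 22.3 ± 3.02 and 42.1 ± 4.95 CPM in WT. The thromboxane receptor gene Tbxa2r was at 2.80 ± 0.88 CPM in S273A and 2.57 ± 0.18 CPM in WT. Ptger3, the receptor through which prostaglandin E2 restrains lipolysis, was named after its values were seen and varied widely, at 104 ± 36.8 CPM in S273A and 93.8 ± 35.6 CPM in WT (log2 fold change 0.15, SE 0.31, 95% interval -0.53 to 0.84).

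Of the other leukotriene enzymes, 8 were tested and 0 passed. Dpep1, the dipeptidase that trims leukotriene D4, had the smallest p of the 41 genes: 188, 183, 179 and 176 CPM in S273A, against 190, 186, 196 and 206 CPM in WT. WT replicate 2 lay below the highest S273A library, and the other WT libraries above all S273A libraries. On the log2 scale S273A differed from WT by -0.10 (SE 0.05, 95% interval -0.21 to 0.01, edgeR unadjusted p 0.0764). Mgst2 and Mgst3, glutathione transferases of which the first can make leukotriene C4, were at 8.02 ± 1.77 and 42.4 ± 3.72 CPM in S273A, and at 7.26 ± 1.57 and 39.3 ± 6.47 CPM in WT.

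Of the leukotriene receptors, 3 were tested and 0 passed. Ltb4r1, the receptor for leukotriene B4, was at 2.61 ± 0.53 CPM in S273A and 2.07 ± 0.54 CPM in WT (log2 fold change 0.34, SE 0.23). The receptor genes for cysteinyl leukotrienes, Cysltr1 and Cysltr2, were at 14.5 ± 2.99 and 2.85 ± 1.41 CPM in S273A, and at 15.0 ± 1.25 and 3.18 ± 0.77 CPM in WT. Of the other lipoxygenases, 2 were tested and 0 passed. Alox15, the 12/15-lipoxygenase of peritoneal macrophages and eosinophils, had 5.24, 12.8, 17.4 and 12.4 CPM in S273A, against 9.26, 10.5, 4.58 and 9.22 CPM in WT. In S273A 3 libraries were above every WT library, and replicate 2 was near the lowest WT library. The estimate of the log2 fold change was 0.51 (SE 0.34, 95% interval -0.26 to 1.27, edgeR unadjusted p 0.172). Summed markers of mesothelial cells, which line the depot, were highest in S273A replicate 4 (288 CPM) and lowest in WT replicate 3 (147 CPM), as Alox15 was. In S273A replicate 2 they summed to 213 CPM, though Alox15 was low there. Platelet markers were also highest in S273A replicate 4 (38.4 CPM), and lowest in S273A replicate 2 (17.6 CPM). Macrophage markers were lowest in S273A replicate 4 (3470 CPM). The part of any of these cell types in the Alox15 level was not tested. Alox12 was at 3.11 ± 1.02 CPM in S273A and 2.65 ± 0.31 CPM in WT (log2 fold change 0.23, SE 0.23).

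**Figure D5:**
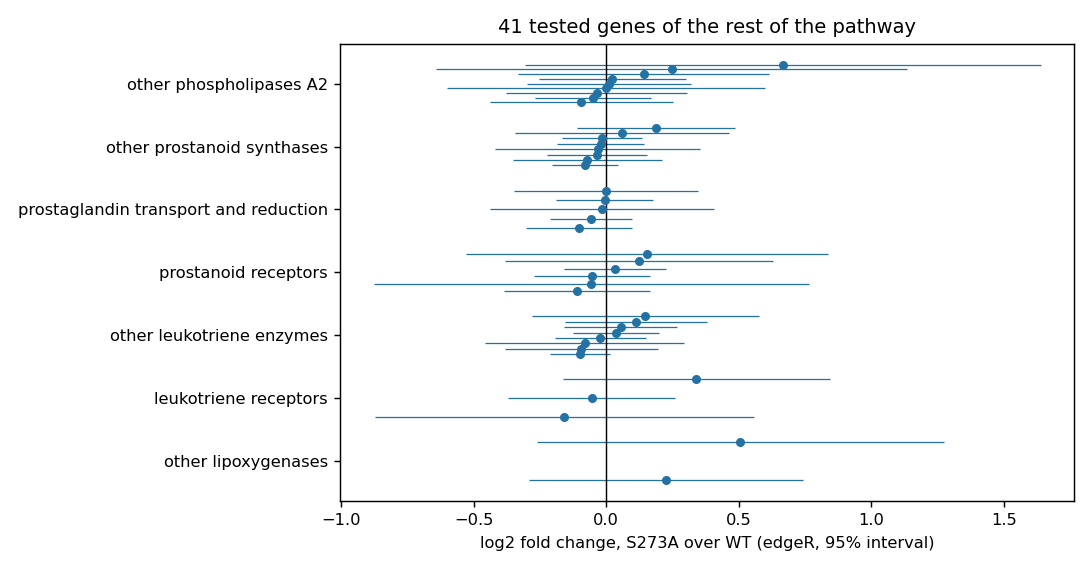
Log2 fold change, S273A over WT (horizontal axis), with 95% confidence intervals from edgeR, of the 41 tested genes outside the 9 enzyme genes, grouped by role. Every interval includes 0, and the highest estimate is 0.67, of Pla2g5.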

How the data were processed

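Raw read counts by gene, with a column of feature lengths, were deposited by the authors. HISAT2 2.0.5 and featureCounts 1.5.2 are named, with build mm10, in the submitters' processing notes. Libraries were depleted of ribosomal RNA and made without strand information, per the labels' protocols. Row symbols were matched exactly, and of several rows with 1 symbol the one with most reads was taken. Counts were fitted with edgeR 4.0.16 in R 4.3.3 on the 15667 rows kept by filterByExpr, with TMM scaling and a robust quasi-likelihood fit of genotype, and Benjamini-Hochberg adjustment ran over all of them. Correlations used log2 CPM with a prior count of 2. The members and lists were chosen with earlier results of these data known. Named genes were all enzyme genes, the 3 genes of each pathway list with the smallest p, the 3 most similar rows of each enzyme gene (1 of them is not reported here), and the marker list with the highest absolute r. Alternatives were DESeq2 1.42.0, limma-voom (limma 3.58.1), other scaling and filters, summed rows, a replicate term and leaving out each library. Positions were read from GENCODE M21 (GRCm38, the assembly of mm10). The deposited lengths of some rows differ from GENCODE exons, so levels per length are approximate.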

Additional observations from a re-analysis of the deposited data

Results flagged for a closer look

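Of 82 groups of 4 libraries checked for 1 library apart from the other 3, 3 were flagged, and chance flags about 1 in 20. Pla2g2d was at 21.3 CPM in S273A replicate 3, against 7.19 to 9.42 CPM in the other S273A libraries. Ptgr1 was at 13.0 CPM in WT replicate 5, against 11.2 to 11.5 CPM in the other WT libraries. Alox12 was at 2.19 CPM in WT replicate 3, against 2.76 to 2.85 CPM in the other WT libraries.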

How the results depend on the processing

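Over 15 alternatives, none of the 9 enzyme genes or 41 pathway genes was called, and the median log2 fold change of the enzyme genes stayed between -0.17 and -0.04. Among all rows, DESeq2 called 1 and the fits without 1 library 0 to 1, in each case Gdf3. With the replicate block, which rests on the 2 numbers both genotypes carry, estimates turned to 0.0784 for Hpgds, -0.199 for Ptgs1 and 0.0604 for Ptgs2, none called. Same-numbered libraries did not deviate together (correlations of -0.084 and -0.215), but 2 correlations cannot show whether they share more than a number. Without 1 library, estimates ran from -0.17 to 0.0678 for Alox5, -0.223 to 0.0518 for Hpgd, -0.174 to 0.0276 for Hpgds, -0.024 to 0.173 for Ptgs1 and -0.454 to 0.0468 for Ptgs2. In the order by level per length, 7 of 9 genes kept their rank with TPM, 4 with GENCODE lengths and 7 to 9 without 1 library. Of the 99 correlations with markers, 0 to 1 passed without 1 library (Hpgds with macrophages, Alox5 with platelets and Alox5 with mast cells, 1 setting each), and that of Alox5ap with mast cell markers was -0.29 without the 2 libraries farthest from the median. The cause was not tested. Ptgs2 and Ptgds had 11 to 47 reads a library, and the part of depth in their wide intervals was not tested.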
